A study of Mus musculus with 33 samples.

Results

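Of the 56414 rows of the expression table, 9 carried the symbols of the interferon pathway genes described here, 4 of them transcription factors (Irf7, Irf9, Irf1 and Stat2) and 5 nucleic acid sensors (Ddx58, Ifih1, Dhx58, Zbp1 and Tlr7). The members were chosen by name, with earlier results of these data known. C57Bl/6 mice received 0.5% nicotinamide (NAM, vitamin B3) in their water over 1, 3 or 14 days. The labels give a renewal every 7 days, and the methods of the study more frequent changes of the solutions. Controls went untreated, and polyA RNA from spleens and lymph nodes was read by sequencing. No label states age, sex or animal number, or whether an animal gave both organs. The libraries labelled spleen numbered 20, with 5 in each group. The libraries labelled lymph node numbered 13, namely 3 untreated and 2, 4 and 4 after 1, 3 and 14 days. The question was whether NAM in the drinking water changes the RNA of these genes in lymphoid organs, and at which time.

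The tissue labels went against a pair of defining transcripts in 33 of 33 libraries. Glycam1, a mucin of the high endothelial venules of lymph nodes, had 108167 to 214210 normalised read counts in the libraries labelled spleen and 1.59 to 12.4 in those labelled lymph node. Spic, a transcription factor of red pulp macrophages of the spleen, had 774 to 1295 counts in the first set against 6117 to 10491 in the second. The sets are therefore named only by their labels. Among the libraries labelled lymph node, replicate 1 at 1 day also held 93083 summed counts of 6 exocrine pancreas markers, against 12.2 to 24.3 in the other 12, and the members' fold changes named below that rest on it are given without it as well.

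Cells detect foreign or misplaced nucleic acid through sensors in the cytosol and in endosomes. The cytosolic helicases RIG-I (encoded by Ddx58) and MDA5 (Ifih1) bind viral RNA and signal to type I interferon genes, LGP2 (Dhx58) tunes both, ZBP1 binds Z-form nucleic acid, and TLR7 reads RNA in endosomes, above all in plasmacytoid dendritic cells and B cells. Secreted interferon then acts through its receptor on a complex with STAT2 and IRF9, which binds the interferon-stimulated response element, while IRF1 answers mainly to interferon gamma and IRF7 drives the interferon genes themselves. The genes of most of these proteins are themselves interferon-induced, so in spleen and lymph node their RNA is commonly read as a sign of interferon exposure.

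The promoters are shown because the members share an inducer. RefSeq windows of 250 bases before and 50 bases from the annotated start of transcription (GRCm38.p6, the assembly mm10 is built on) were matched for 6 of the 9 members, over 8 start sites: Irf7, Irf9, Irf1, Stat2, Ddx58 and Ifih1. Dhx58, Zbp1 and Tlr7 were not matched. A core of the interferon-stimulated response element (ISRE), GAAA and again GAAA with any 2 bases between them, was searched on both strands and found in 3 of the 8 windows, against 3.44% of all 32851 windows. A match describes the letters only. In the stretches below, written 5′ to 3′ in the direction of the gene, capitals mark the match.
Ifih1 (chr2:62646206-62646235, minus strand): gagaagagaatcGAAACAGAAAccgatctg
Ddx58 (chr4:40239804-40239833, minus strand): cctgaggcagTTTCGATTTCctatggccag
Stat2 (chr10:128270266-128270295, plus strand): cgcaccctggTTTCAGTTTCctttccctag

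The Ifih1 match lay at bases 33 to 42 after the start, the Ddx58 match at bases 3 to 12 and the Stat2 match at -222 to -213, the last 2 on the opposite strand. Of the interferon effector genes listed further on, 15 were matched to windows and 8 of them held the same letters. The letters TTCNNNGAA, the half-sites of the interferon gamma activated site (GAS), read alike on both strands and stood in 8.3% of all windows and in 1 member, Irf1, at -90 to -82.
Irf1 (chr11:53769913-53769942, plus strand): aacagcctgatTTCCCCGAAatgatgaggc
Irf7 (chr7:141266436-141266465, minus strand): tgcccgaagtacTATAAAagcactggcacc
The Irf7 stretch is shown because Irf7 gave the largest differences below. Its capitals mark TATAAA, the TATA box letters, at -29 to -24. They were searched on both strands and found in 13.6% of all windows, and also in that of Ddx58 at -153 to -148. No ISRE core or GAS letters were found in the Irf7 window or in either Irf9 window.

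**Figure D1:**
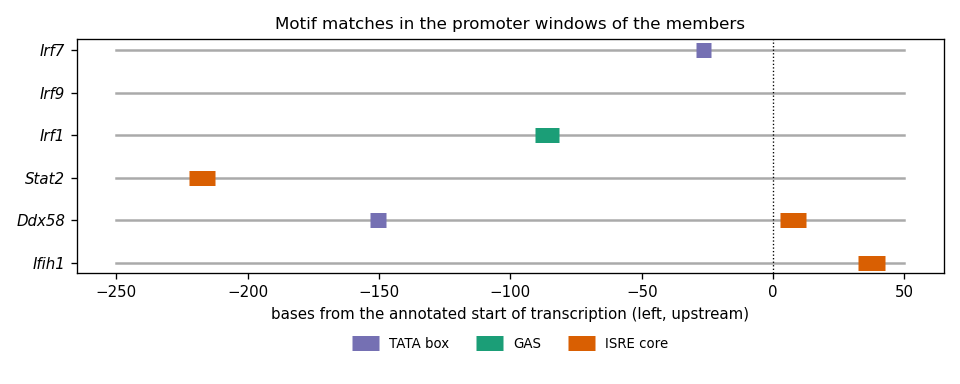
Motif matches in the promoter windows of the 6 matched members, drawn by distance in bases from the annotated start of transcription (dotted line); grey lines are the windows and coloured blocks the matches. Where a gene has 2 start sites (Irf1, Irf9) its windows are laid over each other. ISRE core letters stand near the start in Ddx58 and Ifih1 and upstream in Stat2.

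All 9 members passed the filter on low values (a mean of at least 10 normalised read counts over the libraries of a label). They held 523 to 9525 whole reads in each library labelled spleen and 890 to 8587 in each labelled lymph node. A normalised read count is the number of reads divided by a size factor of the library. The 2 sets of libraries were scaled separately, and a level is compared only within a label. Differences are given as log2 fold changes of normalised count + 1 with the standard error (SE), from limma, with p-values adjusted over all rows of the label and a threshold of 0.05. In bulk RNA, fewer cells of a type and less RNA per cell cannot be told apart. Depth was 18325061 to 54830743 whole reads a library in the set labelled spleen, where the 3-day libraries were among the deepest, and 30424968 to 46733974 in the other set.

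Under the spleen label, Irf7 and Ifih1 rose after 1 day of NAM. For Irf7, the factor that drives interferon alpha genes (chromosome 7 from 141262706 to 141266424), the untreated libraries had 3072, 5211, 2748, 3813 and 2599 normalised read counts. At 1 day they had 4648, 5186, 5524, 5077 and 5609. Untreated replicate 2 stood high, inside the range at 1 day, while the other untreated libraries lay below every 1-day library. The means were 3488 ± 1071 (SD, n = 5) and 5209 ± 385 (SD, n = 5), a log2 fold change of 0.62 ± 0.16 (SE, limma adjusted p = 0.014).

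For Ifih1 (MDA5, the sensor of long RNA duplexes, chromosome 2 from 62595793 to 62646256), the untreated libraries had 906, 1169, 887, 1051 and 945 normalised read counts. At 1 day they had 1156, 1352, 1146, 1365 and 1224. Again untreated replicate 2 lay within the 1-day range and the other 4 below it. The log2 fold change was 0.34 ± 0.09 (SE, limma adjusted p = 0.0168).

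These 2 of 9 members stand beside 8.56% of all 18243 rows called higher in the same comparison, and 16.6% called in either direction. The log2 fold change lay above 0 for 9 of 9 members, from 0.00 for Irf9 to 0.62 for Irf7, with a median of 0.24 against 0.01 over all rows. Dhx58 (LGP2, chromosome 11 from 100694704 to 100704271) had 1050 ± 146 counts untreated and 1256 ± 117 at 1 day (SD, n = 5), a log2 fold change of 0.26 (limma, adjusted p = 0.0927). For Tlr7, on the X chromosome from 167304926 to 167330571, the log2 fold change was 0.24 (limma, adjusted p = 0.148). Zbp1, Ddx58, Stat2 and Irf1 had log2 fold changes of 0.04 to 0.26 and unadjusted p-values of 0.119 to 0.698. No member had all 1-day libraries above all untreated ones, against 6.42% of rows. The count of 2 remained at 2 or went to 3 when single libraries were left out, with 3 without untreated replicate 2 (Dhx58, limma adjusted p = 0.0423) or without 1-day replicate 2 (Tlr7, 0.0141). With libraries weighted by how far each lay from its group (limma array weights), neither Irf7 (limma adjusted p = 0.0543) nor Ifih1 (0.0516) passed, and 1 member did, Tlr7 (0.0283). A principal component is a main axis along which libraries differ over all rows. On the second (13.6% of the variance), scores were -38.0 to -13.2 untreated, -30.9 to -7.5 at 14 days and 14.5 to 32.9 at 1 day. At 3 days they were 11.1 to 21.6, but -17.4 in replicate 1. The cause of this split of the whole table was not tested.

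**Figure D2:**
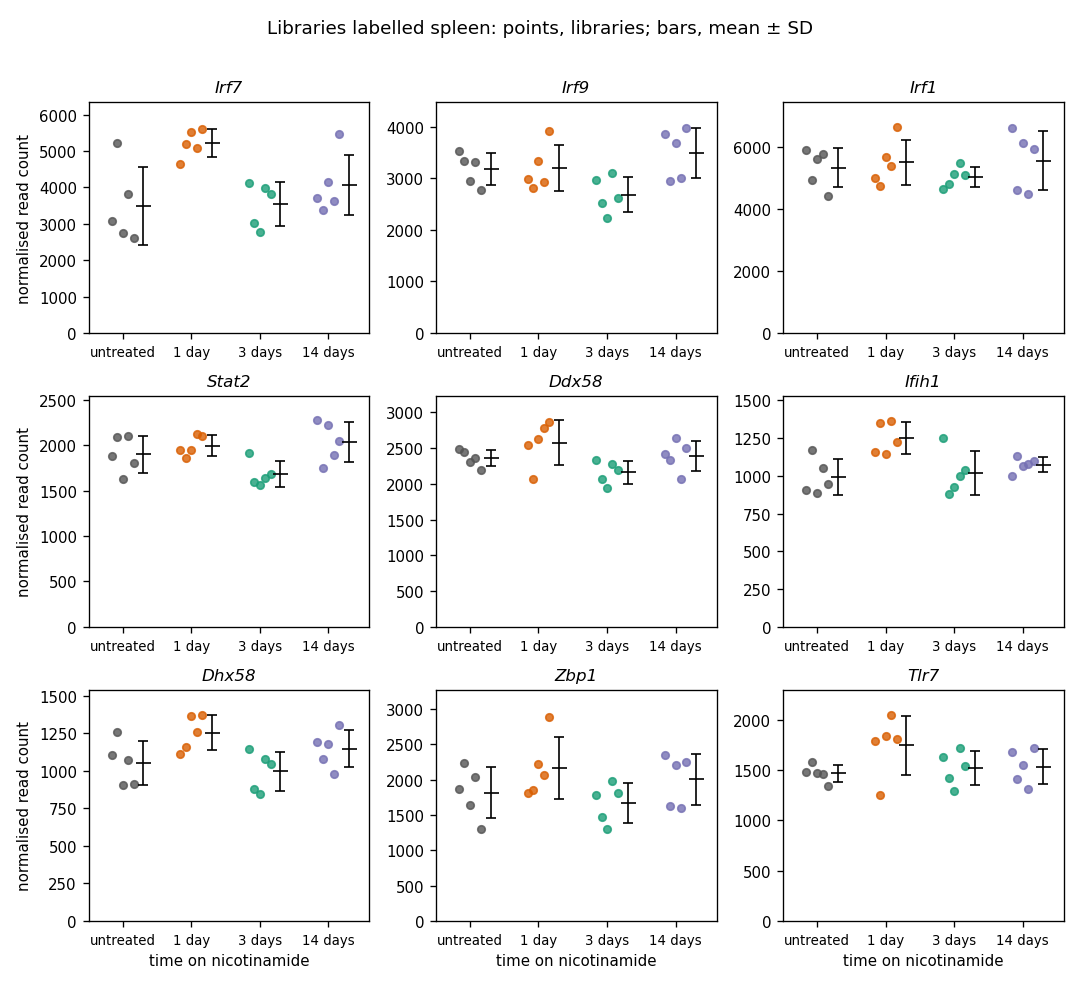
Normalised read counts of the 9 members in the 20 libraries labelled spleen, by time on NAM; points are libraries in order of replicate number and bars the mean ± SD (n = 5), on axes that start at 0. Irf7 and Ifih1 are highest at 1 day, with 1 untreated library inside the 1-day range.

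The 1-day libraries differed among themselves. Members outside the untreated range are counted library by library here and below. The share of all rows was not counted for single libraries, so these counts cannot be set against it. In replicate 5, 9 of 9 members lay above every untreated library, with Irf7 at 5609 counts and Dhx58 at 1373. In replicate 2, 1 member did (Ifih1), and 2 lay below every untreated library, Ddx58 at 2064 counts and Tlr7 at 1255. That replicate also held the most adipocyte RNA, 281978 summed counts of 6 markers against 18600 to 97832 in the untreated libraries. Replicate 3 held 9546 summed counts of 6 neutrophil markers, against 762 to 1993 in the other 19 libraries labelled spleen, with 4 to 6 of 6 above 0. The summed counts of plasmacytoid dendritic cell markers, cells rich in Irf7 and Tlr7, were 10782 to 14266 untreated and 8189 to 11709 at 1 day, with 8 to 10 of 10 rows above 0. The part of these cells in the result was not tested.

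At 3 days the spleen-labelled libraries had 0 of 9 members past the threshold against untreated (limma), against 5.55% of rows called. At an unadjusted p under 0.05 stood 1 member and 21.96% of all rows, and edgeR and DESeq2 on the recovered reads also called 0. The member was Irf9, the DNA-binding partner of STAT2 (chromosome 14 from 55603985 to 55610030), with 3179 ± 309 counts untreated and 2685 ± 347 at 3 days (SD, n = 5) and a log2 fold change of -0.25 ± 0.11 (SE, limma adjusted p = 0.192). The log2 fold changes of the members ran from -0.25 to 0.05, with a median of -0.08.

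Between 1 and 3 days the difference was below 0 for 9 of 9 members, with a median log2 fold change of -0.25 against -0.01 over all rows. Of the members, 7 had an unadjusted p under 0.05, as had 6.98% of all rows, and 0 passed the threshold, as did 0.00548% of rows. For Irf7 the 3-day libraries had 4132, 3024, 2766, 3984 and 3820 counts. All 5 lay below the lowest 1-day library, at 4648, which held for 1 member and for 0.504% of rows. Its log2 fold change from 1 to 3 days was -0.57 ± 0.16 (SE, limma adjusted p = 0.403). The whole table gave 1 call in this comparison with limma, and edgeR and DESeq2 called 0 members.

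At 14 days under the spleen label, 0 of 9 members passed against untreated with limma and with edgeR, as did 0% of rows, and 0 had an unadjusted p under 0.05, as had 2.80% of rows. DESeq2 called 0 members. The log2 fold changes were all above 0, from 0.01 to 0.25, with a median of 0.12 and all-row median of 0.00. For Irf7 the libraries had 3720, 3378, 4155, 3617 and 5476 counts, and replicate 5 was the highest. Replicates 1, 3 and 5 had 5, 4 and 7 members above every untreated library. Replicates 2 and 4 had 0 above, and replicate 4 had 2 below every untreated library.

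Against the other durations, the 14-day mean lay between those at 1 and 3 days for 6 of 9 members and above both for Irf9, Irf1 and Stat2. From 1 to 14 days 0 of 9 passed with limma, edgeR and DESeq2 (10.6% of rows called with limma), 2 had an unadjusted p under 0.05 (25.7% of rows), and 1 (Tlr7) passed without 1-day replicate 2. Ifih1 went from 1249 ± 105 to 1075 ± 47.6 counts (SD, n = 5), a log2 fold change of -0.21 (limma, adjusted p = 0.144), and all 14-day libraries lay below all 1-day ones, as for 5.26% of rows. Irf7 had a log2 fold change of -0.37 (limma, adjusted p = 0.153). From 3 to 14 days 0 of 9 passed with limma and edgeR (1.05% of rows called with limma), while 2 had an unadjusted p under 0.05 (16.7% of rows) and DESeq2 called 2, among 850 of 18243 rows. Irf9 had a log2 fold change of 0.38 (limma adjusted p = 0.0832) and Stat2, the STAT specific to type I and III interferon (chromosome 10 from 128270555 to 128292849), of 0.27 (0.0952). Both passed without 3-day replicate 1, where limma gave adjusted p = 0.0238 for Irf9 and 0.0147 for Stat2.

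In the order of group means under the spleen label, 6 of 9 members were highest at 1 day (Irf7, Ddx58, Ifih1, Dhx58, Zbp1 and Tlr7) and 3 at 14 days (Irf9, Irf1 and Stat2). The lowest group was 3 days for 6 members and untreated for Irf7, Ifih1 and Tlr7. For Irf7 the order was untreated (3488), 3 days (3545), 14 days (4069) and 1 day (5209). No neighbours in that order differed past the threshold, and of all pairs of groups only untreated and 1 day did, for Irf7 and Ifih1.

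Under the lymph node label, Irf7 and Dhx58 fell after 14 days. Irf7 had 5588, 7594 and 7226 normalised read counts in the untreated libraries. At 14 days it had 3957, 4410, 4923 and 4292. All 14-day libraries lay below all untreated ones. The means were 6803 ± 1068 (SD, n = 3) and 4396 ± 401 (SD, n = 4), a log2 fold change of -0.62 ± 0.11 (SE, limma adjusted p = 0.0138). Dhx58 had 1964, 2427 and 2470 counts untreated. At 14 days it had 1548, 1444, 1715 and 1592, again without overlap. Its log2 fold change was -0.53 ± 0.09 (SE, limma adjusted p = 0.0133).

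The 2 of 9 members called lower compare with 0.681% of 18215 rows called lower and 0.791% called in either direction. The log2 fold change was below 0 for 8 of 9 members, with a median of -0.31 against 0.00 over all rows, and above 0 for Irf1, at 0.03. Irf1, the factor most tied to interferon gamma (chromosome 11 from 53770014 to 53778374), had 5997 ± 346 counts untreated (SD, n = 3) and 6138 ± 228 at 14 days (SD, n = 4). Without untreated replicate 2 or untreated replicate 3, 0 members passed. Without replicate 2 the limma adjusted p was 0.1195 for Irf7 and 0.108 for Dhx58, and without replicate 3 it was 0.0679 for both. Without 14-day replicate 2, 3 members passed, with Stat2 added.

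A further 4 members had an unadjusted p under 0.05 at 14 days, making 6 of 9 against 11.8% of all rows, and did not overlap the untreated libraries. Stat2 had 2434, 2747 and 2567 counts untreated and 1999, 2207, 2029 and 2090 at 14 days, a log2 fold change of -0.31 ± 0.07 (SE, limma adjusted p = 0.051). Ifih1 had 1237, 1349 and 1296 counts untreated and 959, 928, 1018 and 1073 at 14 days, with a log2 fold change of -0.38 ± 0.09 (limma, adjusted p = 0.0721). In both genes every 14-day library was below the lowest untreated one. Zbp1 (chromosome 2 from 173206612 to 173218922) had a log2 fold change of -0.38 (limma, adjusted p = 0.117). Ddx58 (RIG-I, the sensor of short RNA with a 5′ triphosphate end, chromosome 4 from 40203777 to 40239827) had one of -0.25 (limma, adjusted p = 0.387). In all, 6 of 9 members lay lower without overlap (the 4 and the called pair), against 6.02% of rows. Irf9, Tlr7 and Irf1 overlapped.

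**Figure D3:**
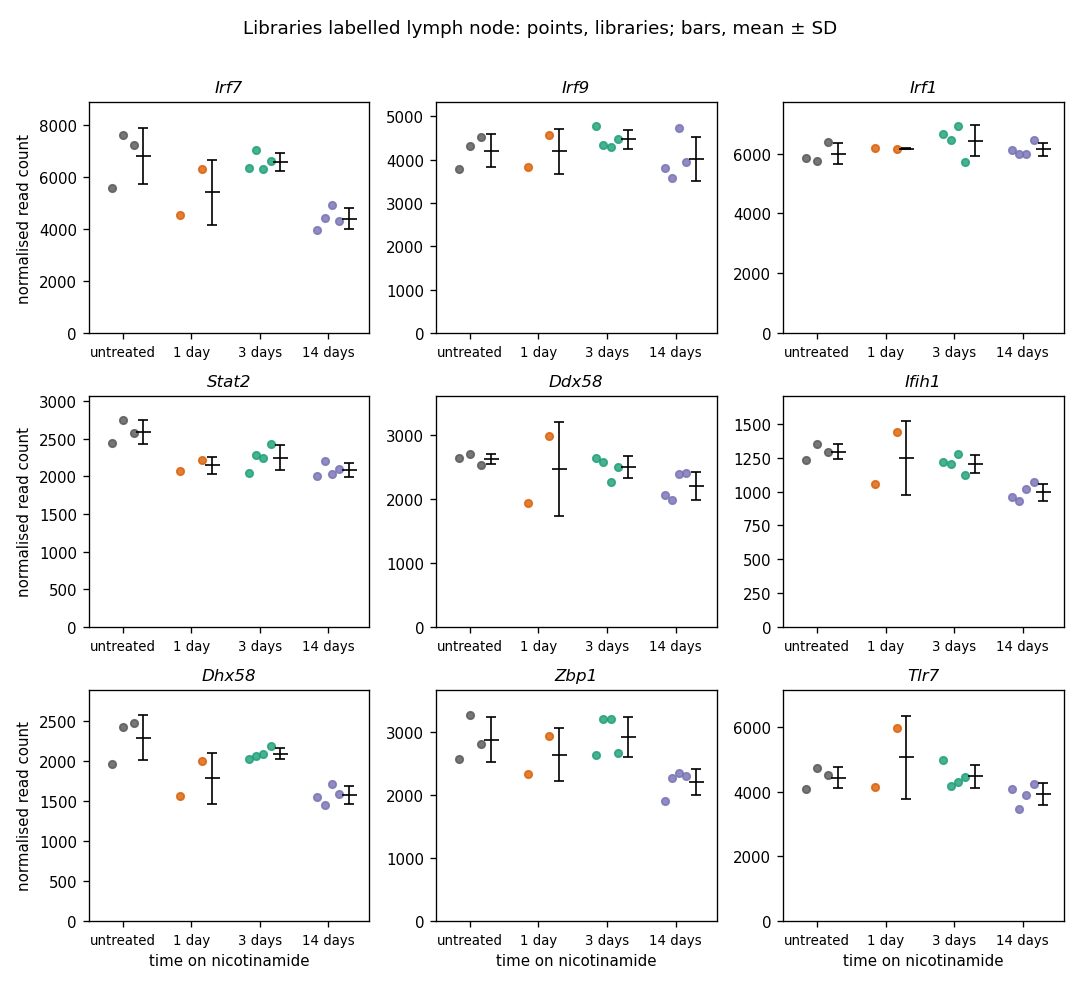
Normalised read counts of the 9 members in the 13 libraries labelled lymph node, by time on NAM; points are libraries in order of replicate number and bars the mean ± SD (n = 3, 2, 4 and 4), on axes that start at 0. At 14 days Irf7, Stat2, Ddx58, Ifih1, Dhx58 and Zbp1 lie below every untreated library, and the 2 libraries at 1 day lie apart for Ddx58 and Tlr7.

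The same 14-day libraries differed in other cell markers. The summed counts of 6 erythroid markers were 728895 to 1567740 untreated and 407473 to 611008 at 14 days, with 6 of 6 genes above 0 in every library. The sum of 6 spleen tissue markers was 57251 to 65684 untreated and 33323 to 51498 at 14 days, also with 6 of 6 above 0. Lower sums were not particular to 14 days. At 3 days the erythroid sum was 163883 to 726594 and the spleen tissue sum 40040 to 57280. Plasmacytoid dendritic cell markers summed to 10066 to 10113 untreated and 9521 to 10249 at 14 days, with 8 to 9 of 10 above 0. The part of these cells in the result was not tested.

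At 1 day the lymph node label had 2 libraries, which differed from each other. Limma called 0 of 9 members against untreated (1.21% of rows called), 3 had an unadjusted p under 0.05 (14.97% of rows), and edgeR and DESeq2 called 0. The 3 were Dhx58 (log2 fold change of -0.37, limma adjusted p = 0.131), Irf7 (-0.34, 0.24) and Stat2 (-0.27, 0.14). Only Stat2 lay lower without overlap, against 15.5% of rows. In replicate 1, which held the pancreas RNA, 6 members lay below every untreated library, with Irf7 at 4523 counts and Ddx58 at 1944. In replicate 2, 4 members lay above every untreated library and 1 below, with Irf7 at 6286, Ddx58 at 2989 and Tlr7 at 5985. The median log2 fold change was -0.12 with both, 0.04 without replicate 1 and -0.29 without replicate 2. Without replicate 1 the log2 fold change was -0.18 for Dhx58 (limma, adjusted p = 0.552), -0.10 for Irf7 (0.813) and -0.22 for Stat2 (0.396). Both 1-day libraries lay above all untreated ones in summed neutrophil markers (25654 to 33994.5 against 12752 to 23062). So they did for macrophages and monocytes (63875 to 71825 against 53014 to 55009) and lymph node tissue (13671 to 15396 against 7005 to 9417). Sums for B cells, NK cells, conventional dendritic cells and erythroid cells overlapped. The part of the pancreas RNA in the low values, or of these cells, was not tested.

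After 3 days 0 of 9 members passed against untreated in the set labelled lymph node, with limma, edgeR and DESeq2 (1.24% of rows called with limma), and 1 had an unadjusted p under 0.05, as had 14.8% of rows. Stat2 had 2036, 2284, 2236 and 2429 counts, all below the untreated libraries, as for 7.25% of rows. Its log2 fold change was -0.20 (limma, adjusted p = 0.189). Irf7, at 6353, 7026, 6302 and 6606, lay within the untreated range, and the members' median log2 fold change was -0.04.

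From 3 to 14 days the log2 fold change was below 0 for 9 of 9 members, with a median of -0.19. With limma and edgeR 0 passed, as did 0.011% of rows with limma, and 4 had an unadjusted p under 0.05, as had 5.84% of rows. Irf7 had a log2 fold change of -0.58 ± 0.10 (SE, limma adjusted p = 0.0936), Dhx58 of -0.41 (0.17), Zbp1 of -0.40 (0.275) and Ifih1 of -0.28 (0.553). In those 4 every 14-day library lay below every 3-day library, as in 1.75% of rows. DESeq2 on the recovered reads called 3 of them (Irf7, Dhx58 and Zbp1), among 55 of 18215 rows, and a limma fit on the 3-day and 14-day libraries alone called Irf7, with an adjusted p of 0.0184. Both comparisons with 1 day gave 0 calls each with limma, edgeR and DESeq2, where limma called 0.357% of rows from 1 to 3 days and 0.401% from 1 to 14 days. At an unadjusted p under 0.05 stood 2 members and 7.75% of rows in the first, and 3 members and 12.8% of rows in the second. From 1 to 3 days Irf7 (log2 fold change of 0.30, limma adjusted p = 0.553) and Dhx58 (0.24, 0.584) lay higher without overlap, against 6.52% of rows. Without the library with pancreas RNA both had a log2 fold change of 0.06 (limma, adjusted p = 0.927 and 0.912). From 1 to 14 days Tlr7 (-0.35), Ifih1 (-0.31) and Irf7 (-0.28) had limma adjusted p-values of 0.202, 0.202 and 0.357. Without that library the log2 fold changes were -0.61, -0.54 and -0.52, with limma adjusted p-values of 0.0703, 0.0688 and 0.184.

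In the order of group means under the lymph node label, 14 days was lowest for 8 of 9 members and untreated for Irf1. The highest group was untreated for Irf7, Stat2, Ddx58, Ifih1 and Dhx58, 3 days for Irf9, Irf1 and Zbp1, and 1 day for Tlr7. In replicate 2 at 1 day alone, without the library with pancreas RNA, Irf9, Ddx58, Ifih1, Zbp1 and Tlr7 were higher than the other group means. For Irf7 the order was 14 days (4396), 1 day (5405), 3 days (6572) and untreated (6803), and the 1-day value without that library was 6286. Only 14 days and untreated differed past the threshold.

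**Figure D4:**
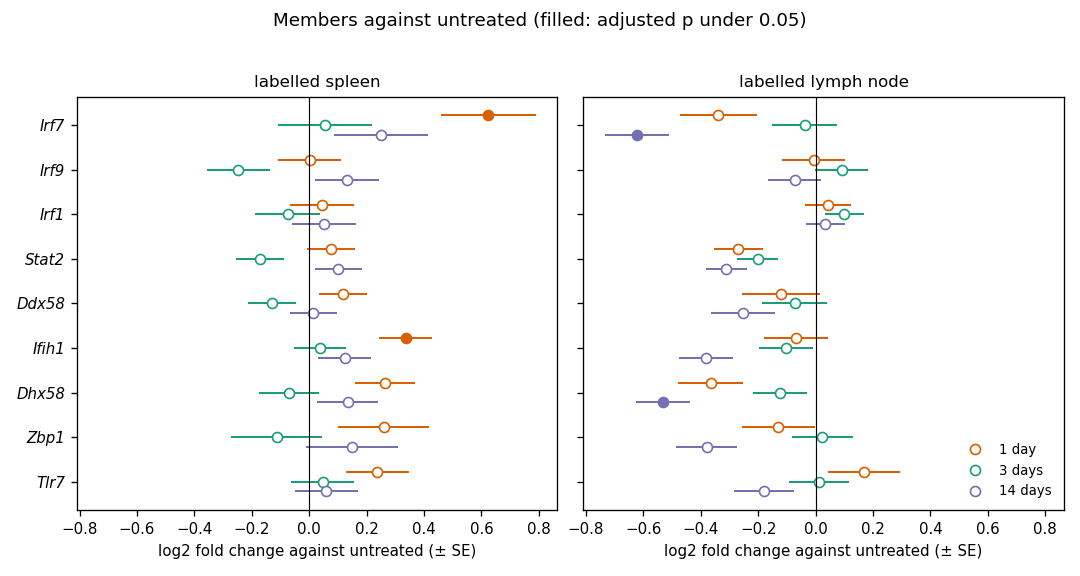
Log2 fold change against untreated (± SE) of the 9 members under each label, by time on NAM; filled circles had a limma adjusted p under 0.05 over all rows of the label. The filled circles are Irf7 and Ifih1 at 1 day under the spleen label, above 0, and Irf7 and Dhx58 at 14 days under the lymph node label, below 0.

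Whether the change from untreated differed between labels was tested in a fit over all 8 groups, which treats all libraries as independent although the labels do not say whether an animal gave both organs. At 1 day the change of Irf7 was 0.96 ± 0.26 (SE) higher on the log2 scale under the spleen label than under the lymph node label (limma, adjusted p = 0.0499), so that 1 of 9 members passed, against 0.811% of 17147 rows in that direction and 1.69% in either. The call did not hold in 12 of 15 fits that each left out 1 library, with a log2 difference of 0.73 to 1.2 and a limma adjusted p from 0.011 to 0.266. It was lost without any 1 of the 3 untreated or the 2 one-day libraries labelled lymph node, without 1-day replicate 2, 3, 4 or 5 labelled spleen, and without untreated replicate 1, 3 or 5 labelled spleen. Without the library with pancreas RNA the difference was 0.73 (limma, adjusted p = 0.266). Dhx58 differed by 0.63 ± 0.17 (SE, limma adjusted p = 0.0537) and passed without untreated replicate 2, 1-day replicate 1 or 1-day replicate 2 labelled spleen, or without untreated replicate 1 labelled lymph node. Without the library with pancreas RNA it differed by 0.45 (limma, adjusted p = 0.299).

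At 14 days 0 of 9 differences passed with limma and with edgeR, against 0.14% of rows, and 5 had an unadjusted p under 0.05, as had 4.85% of rows. All 9 lay above 0, with a median of 0.41 on the log2 scale against 0.00 over all rows. Irf7 differed by 0.87 ± 0.23 (SE, limma adjusted p = 0.235) and Dhx58 by 0.67 ± 0.15 (0.088), and DESeq2 called Dhx58. Both passed without untreated replicate 2 labelled spleen, and Dhx58 without untreated replicate 1 labelled lymph node. Ifih1 (0.50), Zbp1 (0.53) and Stat2 (0.41) had limma adjusted p-values of 0.284, 0.889 and 0.319. At 3 days 0 of 9 passed with limma, edgeR and DESeq2, against 0.735% of rows, and Irf9 had the 1 unadjusted p under 0.05 (13.1% of rows), with a difference of -0.34.

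**Figure D5:**
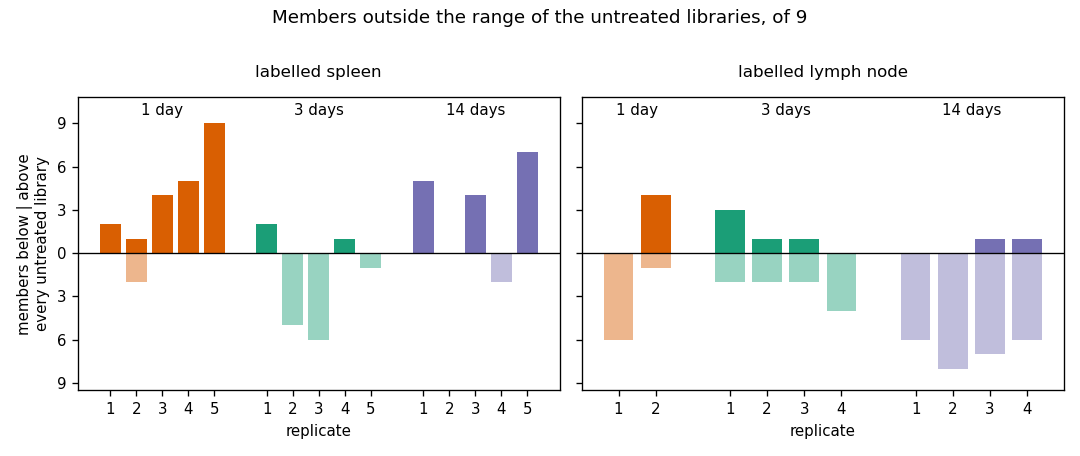
Number of the 9 members that lay above (up, full colour) or below (down, pale) every untreated library of the same label, for each treated library by time on NAM and replicate number. At 1 day under the spleen label replicate 5 has 9 above, and at 14 days under the lymph node label the 4 libraries have 6 to 8 below. The share of all rows outside the untreated range was not counted for single libraries.

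The genes around the members were taken as lists by role, chosen with earlier results of these data known. Of 21 interferon ligand genes, 20 stayed under the filter in both sets, with at most 4 reads in any library, and 11 in the set labelled spleen and 14 in that labelled lymph node had no read at all. Ifnb1, the interferon beta gene, had a mean of 0.59 counts in the untreated libraries labelled spleen and 0.38 at 1 day. Ifng, the gene of interferon gamma, passed the filter, with 28.8 ± 11.9 counts untreated and 41.2 ± 13.1 at 1 day under the spleen label (SD, n = 5), a log2 fold change of 0.57 (limma, adjusted p = 0.309). Under the lymph node label Ifng had 106 ± 15.5 counts untreated (SD, n = 3) and 78.2 ± 19.5 at 14 days (SD, n = 4), a log2 fold change of -0.46 (limma, adjusted p = 0.395).

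Ifngr1, a chain of the interferon gamma receptor, was called higher at 1 day under the spleen label (log2 fold change of 0.48, limma adjusted p = 0.000739) and again at 3 days (0.36, 0.0133). The 3-day call was lost without 3-day replicate 3.

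The other nucleic acid sensors and adaptors, 15 rows of 14 genes, had 0 called higher and 2 lower at 1 day in the spleen-labelled set, where 16.6% of all rows were called, and a median log2 fold change of -0.13. These were Tlr9, the endosomal DNA sensor that pairs with TLR7 in B cells and plasmacytoid dendritic cells (-0.37, limma adjusted p = 0.0118), and 1 of the 2 rows of Mb21d1, which encodes the DNA sensor cGAS (-0.52, 0.00398). Tlr9 had 3077 ± 208 counts untreated and 2381 ± 155 at 1 day (SD, n = 5), and at 3 days its log2 fold change was -0.34 (limma adjusted p = 0.0427). Without any 1 of the untreated or 3-day libraries other than 3-day replicate 1, 0 of the list were called at 3 days, and without that replicate 3 were. Mavs, the adaptor of RIG-I and MDA5, had log2 fold changes of -0.24 at 1 day and -0.27 at 3 days, with limma adjusted p-values of 0.0798 and 0.0823. Under the lymph node label 0 of the 15 rows were called against untreated at any time, with 5, 2 and 1 at an unadjusted p under 0.05 at 1, 3 and 14 days, against 14.97%, 14.8% and 11.8% of all rows. DESeq2 called 1 row there at 1 day and 1 at 3 days. The share of all rows that DESeq2 called is not given here, so these counts cannot be set against it.

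Against 16.6% of all rows called at 1 day under the spleen label and 5.55% at 3 days, the counts of the next 3 lists were as follows. Of 10 kinases and adaptors upstream of IRF3 and IRF7, 1 was called higher at 1 day under the spleen label, Chuk (log2 fold change of 0.26, limma adjusted p = 0.0457), and 1 lower, Ikbke, a kinase of IRF3 and IRF7 (-0.38, 0.0212). Of 6 other IRF genes, Irf4 was lower at 1 day (-0.44, 0.00754) and Irf8 at 3 days (-0.33, 0.0492). The kinase count of 2 went to 0 without untreated replicate 1 or 2 and to 1 without any other library but 1-day replicate 5. The count of other IRF genes at 3 days was 0 without any single library except 3-day replicate 1, without which it was 2, and that at 1 day was 2 without 1-day replicate 5. Irf3, which is activated through its protein in most cells, had 2748 ± 160 counts untreated and 2518 ± 57.5 at 1 day under the spleen label (SD, n = 5), a log2 fold change of -0.12 (limma, adjusted p = 0.203). At 3 days under the lymph node label its log2 fold change was 0.21 (limma, adjusted p = 0.148). Among 11 negative regulators, 2 were called higher at 1 day under the spleen label, Usp18, which shuts off signalling at the interferon receptor (0.68, 0.000809), and Trim30a (0.42, 0.0355), and 3 lower. These 5 calls became 1 without untreated replicate 1 or 3 or 1-day replicate 4, 2 without 1-day replicate 3, 4 without 1-day replicate 5, and 3 without any other library.

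The list of effector genes that STAT2, IRF9 and IRF7 induce held 20 genes. Of these, 16 were called higher at 1 day under the spleen label, against 8.56% of all rows. The list had a median of 0.66 on the log2 scale, led by Ifit3 (log2 fold change of 1.45, limma adjusted p = 0.000306) and Rsad2 (1.38, 0.00154). In the 14-day libraries labelled lymph node 7 of 20 were called lower, against 0.681% of all rows, with a median of -0.58, led by Rsad2 (-1.57, limma adjusted p = 0.0029) and Isg15 (-0.86, 0.0138). Rsad2, the antiviral enzyme viperin, had 57.9 ± 23.9 counts untreated and 144 ± 18.5 at 1 day under the spleen label (SD, n = 5). Under the lymph node label it had 351 ± 160 counts untreated (SD, n = 3) and 110 ± 6.81 at 14 days (SD, n = 4). Of the 20, 2 were called lower without untreated replicate 2, 3 without untreated replicate 3, and 4 without 14-day replicate 1, 2 or 4. After 3 days, in the set labelled lymph node, Rsad2 (-1.27, limma adjusted p = 0.00703) and Isg20 (-0.68, 0.0031) were lower. Of 10 effector genes of interferon gamma, 4 were called higher at 1 day under the spleen label (8.56% of all rows), led by Iigp1 (0.72, 0.00356) and Igtp (0.69, 0.00433), and 0 were called with limma at 14 days under the lymph node label, where 2 had an unadjusted p under 0.05 (11.8% of all rows) and DESeq2 called 2.

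The genes whose levels ran most alike with the mean standardised log2 profile of the members are given as a description across libraries, which share treatment groups and scaling. Under the spleen label, over 20 libraries and 15527 rows with a symbol, among the closest were Dtx3l (Pearson r of 0.93), Oas3 (0.92), Parp9 (0.91) and Oasl1 (0.89). Under the lymph node label, over 13 libraries and 15328 rows, they were Oasl2 (0.98), Ifit3 (0.98), Ifit1 (0.97), Usp18 (0.96) and Ifit3b (0.96). Irf7 by itself ran closest to Ifit1 under the spleen label (0.96) and to Dhx58 under the lymph node label (0.96). Dhx58 ran closest to Oasl2 (0.94) under the spleen label. For Irf1 the closest were Obfc1 (0.89) and Yipf5 (0.88), and for Irf9 Khsrp (0.87) and Xaf1 (0.91), under the spleen and lymph node labels respectively.

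Reads of overlapping genes can be shared, since strand use in the counting is not given in the sources used here. In the GENCODE vM21 annotation, exons of Irf7 overlapped Phrf1 on the opposite strand by 45 bases, those of Irf9 overlapped Rnf31 on the same strand by 123, those of Irf1 overlapped Gm17334 on the opposite strand by 135, and those of Dhx58 overlapped Dhx58os on the opposite strand by 141. The other 5 members shared no exon bases with another gene.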

How the data were processed

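The authors deposited 1 table for all 33 libraries, whose linear signal is the read count of a gene divided by a DESeq2 size factor. Its header names mm10 and a GenoSplice annotation. The submitters' processing notes name STAR 2.4.0, DESeq2, Picard, SAMtools and FastQC, and the libraries were TruSeq mRNA read from both ends.

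Groups came from the sample titles and columns were matched through the sample descriptions, with 0 unmapped. In each library the values above 0 were multiples of 1 step (100.0% within 0.05 of a whole number), which returned the reads. Recomputed median-of-ratios size factors differed from those deposited by ratios of 0.9999 to 1.0001 (spleen label) and 0.9621 to 0.9719 (lymph node label), so the sets were scaled separately. Of 56 replicate pairs 0 were identical, with a chi-square per degree of freedom of at least 8.25. Nothing states that libraries are separate animals, so p-values measure the spread between these samples.

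Log2(normalised count + 1), a scale that understates changes of low genes, was tested with limma 3.58.1 (R 4.3.3), two-sided, with an intensity trend, all 4 groups of a label in a fit, and Benjamini-Hochberg adjustment over 18243, 18215 and 17147 rows (spleen label, lymph node label, difference between labels). Rows with a mean under 10 were left out. Libraries held 18325061 to 54830743 reads, and groups of 2 to 5 libraries limit the precision of each mean.

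The members and lists were chosen with earlier results of these data known. Every member is named. Of each list at most the 2 called genes with the largest change per comparison with untreated are named, plus Irf3, Mavs, Ifnb1 and Ifng, and rows closest to the members' mean profile. Some items and the list counts that need them are not reported here. Alternatives covered the pseudocount (0.1, 5), filter (none, 50), quantile normalisation, library weights, replicate block, groups in the fit, each library left out, a call rule of 1.5-fold at an unadjusted p up to 0.05, and count tests on the reads by DESeq2 1.42.0 and edgeR 4.0.16. The test was checked on simulated data. Motifs were searched with Python 3.11.15.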

Additional observations from a re-analysis of the deposited data

Results flagged for a closer look

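The change of Irf7 at 1 day differed between the labels by 0.96 on the log2 scale (limma adjusted p of 0.0499 for the difference itself). Its means went from 3488 untreated to 5209 counts in the set labelled spleen, and from 6803 to 5405 in the set labelled lymph node. The 2 libraries at 1 day under the lymph node label had 4523 and 6286 counts, the lower being the library that held exocrine pancreas RNA. Without that library the difference was 0.73 (limma adjusted p of 0.266). The call was lost in 12 of 15 fits that each left out 1 library and under 6 of 11 other settings.

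In the set labelled lymph node, Zbp1 had in its first 14-day replicate 1901 normalised read counts against 2273 to 2348 in the other 3 libraries of the group. Its gap to the nearest of the others was 0.832 of the group's range, just over the critical value for 4 samples. Of 54 sets examined this was the 1 that stood out, where chance gives about 1 in 20.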

How the results depend on the processing

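Of the members' fold changes with an unadjusted p under 0.05, 452 values under other settings kept direction and side of the threshold, 32 passed it newly and 11 fell short, and 0 changed sign. With single libraries left out the numbers were 420, 12 and 16. All these fits share libraries with the main fit. The rule of 1.5-fold reuses the fold change of the main fit, so its sign could not change. Counts of members called moved as follows. By a rule of 1.5-fold at an unadjusted p up to 0.05, 1 was called at 1 day (spleen label), 1 at 14 days (lymph node label) and 2 in each difference between labels at 1 and 14 days. With library weights the counts were 1 at 1 day (Tlr7, with Irf7 and Ifih1 not called), 2 lower at 3 days, 1 from 1 to 3 days and 2 from 3 to 14 days under the spleen label, 4 at 14 days under the lymph node label, and 1 in the difference between labels at 3 days, and at 1 day that difference was called for Dhx58 and not for Irf7. Over all rows the weights called 3932, 4722, 26 and 3137 of 18243 in these 4 comparisons of the spleen label, 278 of 18215 at 14 days under the lymph node label, and 1944 and 882 of 17147 in the differences at 3 and 1 days. With DESeq2 on the recovered reads they were 2 from 3 to 14 days (spleen label), 5 at 14 days and 3 from 3 to 14 days (lymph node label), 2 in the difference between labels at 1 day and 1 at 14 days. Within the groups compared alone they were 1 at 14 days and 1 from 3 to 14 days (lymph node label) and 0 in the difference at 1 day. That difference gave 0 with a pseudocount of 0.1, without a filter and with edgeR, and 2 with a filter at 50 or quantile normalisation. With the replicate number as a block, 4 members were called lower at 14 days and 1 from 3 to 14 days under the lymph node label, and 0 in the difference at 1 day. The median correlation of deviations between same-numbered libraries of a label was 0.04 in the spleen-labelled set and -0.01 in the other. In the spleen-labelled set it ran from -0.50 to 0.47. Of 20 and 13 libraries, 4 and 1 correlated best with their own number. Pairs were taken within a label only, so whether an animal gave both organs was not tested, nor was a shared cage or preparation. Apart from library weights, the member counts of this paragraph stand without the share of all rows called under the same setting. Alone they cannot be set against a general rate. The cause of these shifts in counts was not tested.

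Leaving out single libraries gave 0 to 1 member from 1 to 14 days (1 without 1-day replicate 2) and 0 to 2 from 3 to 14 days (2 without 3-day replicate 1) under the spleen label, 0 to 3 for 14 days in the set labelled lymph node (0 without untreated replicate 2 or 3), and 0 to 2 in the differences between labels at 1 and 14 days. Where this left 1 library at 1 day under the lymph node label, it was assumed to vary like the other groups. The members' median log2 fold change under the lymph node label, without replicate 1 or replicate 2 at 1 day, was 0.04 or -0.29 for 1 day, -0.01 or 0.23 for 1 to 3 days and -0.41 or -0.01 for 1 to 14 days, and the difference between labels at 1 day was 0.18 or 0.55.

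Over all rows, DESeq2 called 3368 at 1 day (spleen label) where limma called 3030 and edgeR 2976, and 382 at 14 days (lymph node label) where limma called 144 and edgeR 160. At this depth 20 of 21 ligand genes had too few reads to be tested.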
